A study of Fukomys damarensis with 16 samples.

Results

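Ovary and kidney were compared in 4 RNA libraries of female Damaraland mole-rats, Fukomys damarensis, a burrowing rodent that lives in colonies of breeders and non-breeding helpers. The 4 libraries were chosen by their labels from the 16 of the series. They are the ovary of a breeding female, the kidney of a breeding female, the ovary of a non-breeding female and the kidney of a non-breeding female. The non-breeding females are labelled as 3 years old and no age is given for the breeding females, so age and breeding status cannot be told apart. Libraries of males are used beside them, and the non-breeding males are labelled as 5 years old, so the non-breeding libraries of the series mix 2 ages. No treatment or genetic change is named in the labels, and all 4 libraries hold poly(A)+ RNA. The labels do not say whether an ovary and a kidney came from the same animal, nor how many animals gave RNA to a library. Each combination of tissue and status has 1 library, so p-values measure only the spread between these libraries. In the test of ovary against kidney, the breeding and the non-breeding library stand as the 2 libraries of a tissue. Breeding status therefore enters the spread of that test, which holds no replicates of a status.

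The ovary holds follicles, in which granulosa and theca cells surround an oocyte and make steroid hormones, and after ovulation the follicle turns into a hormone-secreting corpus luteum. In Damaraland mole-rats, non-breeding females generally do not ovulate while they live with the breeding female. The kidney filters blood and is built mostly of tubule epithelium, whose cells carry many transporters and metabolic enzymes. The comparison therefore sets a reproductive gland against a transporting epithelium, once in breeding and once in non-breeding libraries.

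The deposited table gives 21082 gene identifiers and does not pair them with gene names. A RefSeq gene table for assembly DMR_v1.0_HiC matched 0 of 21082 by symbol, locus tag or accession. The tissue labels could therefore not be checked against marker genes of ovary or kidney cells. Only the genes with the largest differences are given by identifier, at most 2 for each direction of a comparison, and what these genes encode is not known here. In bulk tissue, fewer cells of a type and less RNA per cell cannot be told apart.

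Levels are RPKM, reads divided by the length of the gene model and by the size of the library. Reads assigned to genes, recovered from these values, came to 23295227 in the breeding ovary, 17641918 in the non-breeding ovary, 19534775 in the breeding kidney and 15634095 in the non-breeding kidney. Genes at 1 RPKM or more numbered 13796 and 13288 in the ovaries, the breeding library first, and 13506 and 13279 in the kidneys. The 100 most abundant genes took 21.1% and 20.8% of the reads in the ovaries and 23.8% and 23.4% in the kidneys. Correlations of log2(RPKM + 1) over the 14286 genes tested were 0.952 between the ovaries and 0.956 between the kidneys. Between an ovary and a kidney they were 0.620 to 0.662. The genes share the depth and the composition of their library, so these correlations are descriptions.

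Many genes differed between ovary and kidney, about as many in each direction with the deposited scaling. Of 14286 genes at 1 RPKM or more in at least 2 of the 4 libraries, 2194 (15.4%) were higher in ovary and 2340 (16.4%) lower, by limma on log2(RPKM + 1) at an adjusted p under 0.05. The genes lower in ovary had a median log2 difference of -2.01, against 1.61 for the genes higher in ovary and 0.06 for all genes tested. For these same genes, which median is larger depends on scaling: after scaling to reads on genes they had medians of -1.79 and 1.82. The genes called after that scaling had medians of -2.08 and 1.51. Genes called with quantile normalization had medians of -2.04 and 1.56, and those called with voom on recovered reads -2.81 and 1.95. Among the calls of each scaling the genes lower in ovary thus had the larger median. Differences of 2-fold or more on this scale were reached by 2004 of the genes higher and 2180 of those lower in ovary. At 4-fold or more the counts were 712 and 1176, at 16-fold or more 98 and 412, and at 256-fold or more 7 and 33. After scaling to reads on genes, calls at 4-fold or more numbered 916 and 1024 and at 16-fold or more 125 and 371. Voom on recovered reads gave 1491 and 1296 at 4-fold or more. At 16-fold or more voom gave 461 and 660, and at 256-fold or more 50 and 183. For each of the 4534 genes called, the values of the 2 ovaries and the 2 kidneys did not overlap. Among all genes tested, both ovaries were above both kidneys for 36.8% and below them for 32.1%.

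The balance of higher and lower genes rests on how the libraries are scaled and on single libraries. Reads on genes came to 0.769 and 0.765 of the library divisor in the ovaries and to 0.945 and 0.911 of it in the kidneys, the breeding library first. Scaling to reads on genes raised ovary over kidney ratios by 0.30 (breeding pair) and 0.25 (non-breeding pair) on the log2 scale, and 3146 genes were then higher and 1953 lower in ovary (61.7% higher, against 48.4% as deposited). With voom on the recovered reads the counts were 3073 and 1965, with quantile normalization 2544 and 2173, and with all 16 libraries 3815 and 3416. Without 1 library there were fewer calls. Without the breeding ovary 1026 genes were higher and 1932 lower (34.7% higher), and without the non-breeding ovary 1086 and 1666 (39.5%). Without the breeding kidney the counts were 1631 and 1389 (54.0%), and without the non-breeding kidney 971 and 1073 (47.5%).

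DMR_17300 had the largest difference in favour of the ovary. It stood at 3622 (breeding) and 6912 RPKM (non-breeding) in the ovaries. The kidneys had 1.40 and 0.210 RPKM in the same order. The log2 difference was 11.52 (SE 0.45, limma adjusted p = 7.57e-05), with the ovary higher in 2 of 2 pairs. Outside these libraries it was read in the male gonad, with 226 and 431 RPKM in the testes, and reached at most 1.14 RPKM in liver and brain. DMR_17802 showed the same order of tissues. Its levels were 2794 and 2092 RPKM in the ovaries, 4.03 and 0.445 in the kidneys, 101 and 139 in the testes and at most 0.113 in liver and brain. Its log2 difference was 9.81 (SE 0.58, limma adjusted p = 0.000213). Both genes were high in all 4 gonad libraries and near 0 in the liver and brain libraries. DMR_17300 and DMR_17802 were picked for the size of their difference in the libraries compared. Their errors, p-values and direction in the pairs are therefore descriptions.

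DMR_07783 had the largest difference in favour of the kidney. It stood at 8951 and 4817 RPKM in the female kidneys and at 0.326 and 0.328 in the ovaries, from 17 and 13 reads there. The log2 difference was -12.27 (SE 0.34, limma adjusted p = 4.92e-05). The male kidneys had 7448 and 4990 RPKM, and no library of another tissue was above 8.37 RPKM. DMR_19765 came next, with 4537 and 2737 RPKM in the female kidneys. It had 1 read in the breeding ovary and 0 in the non-breeding ovary, where a count of 0 allows up to 3 reads. The log2 difference was -11.77 (SE 0.30, limma adjusted p = 4.85e-05). Counted in reads over both libraries of a tissue, the kidney level was 303138 times that of the ovary, with a 95% counting interval of 54407 to 11973365. This gene was not limited to kidney: the livers held 2379 to 3054 RPKM, and the male kidneys, at 1435 and 1199, held less than the female kidneys. Fitted differences of genes near 0 in a tissue depend on the pseudocount of 1. Both genes passed the filter of 1 RPKM through the kidneys alone and were picked for the size of their difference. Their errors and p-values are therefore descriptions.

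**Figure D1:**
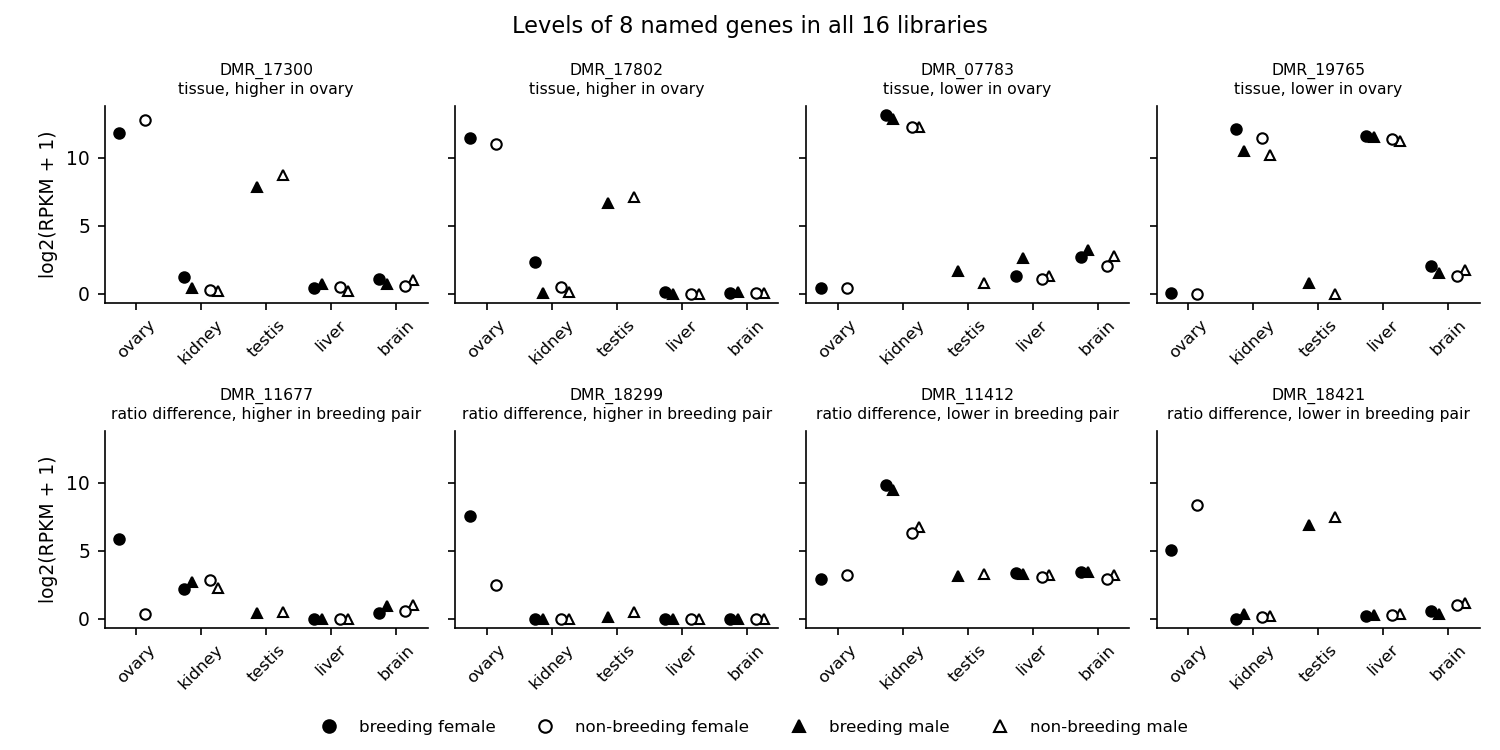
Levels of 8 genes as log2(RPKM + 1) (y axis) in the 16 libraries, by tissue (x axis); filled symbols are breeding and open symbols non-breeding animals, circles are females and triangles males, and each symbol is 1 library. The upper row holds the genes with the largest ovary and kidney differences, of which the 2 ovary genes are also high in testis, and the lower row holds genes whose ovary over kidney ratio differed between breeding and non-breeding libraries.

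Genes called in favour of the kidney took a larger part of kidney RNA than genes called in favour of the ovary took of ovary RNA, with the calls as the deposited scaling gives them. Genes called lower in ovary held 40.2% and 41.7% of the reads in the female kidneys and 7.24% and 6.90% in the ovaries. Genes called higher in ovary held 26.8% and 26.5% of the reads in the ovaries and 4.93% and 4.22% in the female kidneys. These shares follow in part from the calls. The male kidneys, which had no part in the calls, gave 38.4% and 40.1% for the kidney genes and 5.76% and 5.27% for the ovary genes, close to the female kidneys. Among the 100 genes with the highest RPKM in a library, 53 and 55 were called higher in ovary in the ovaries, and 51 and 55 were called lower in ovary in the kidneys, beside 15.4% and 16.4% of all genes tested. These genes were picked by their level in libraries that made the calls, so nothing is read from the counts. The 2 ovaries shared 81 of these 100 genes, the 2 kidneys shared 78, and 26 genes were common to all 4 libraries.

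**Figure D2:**
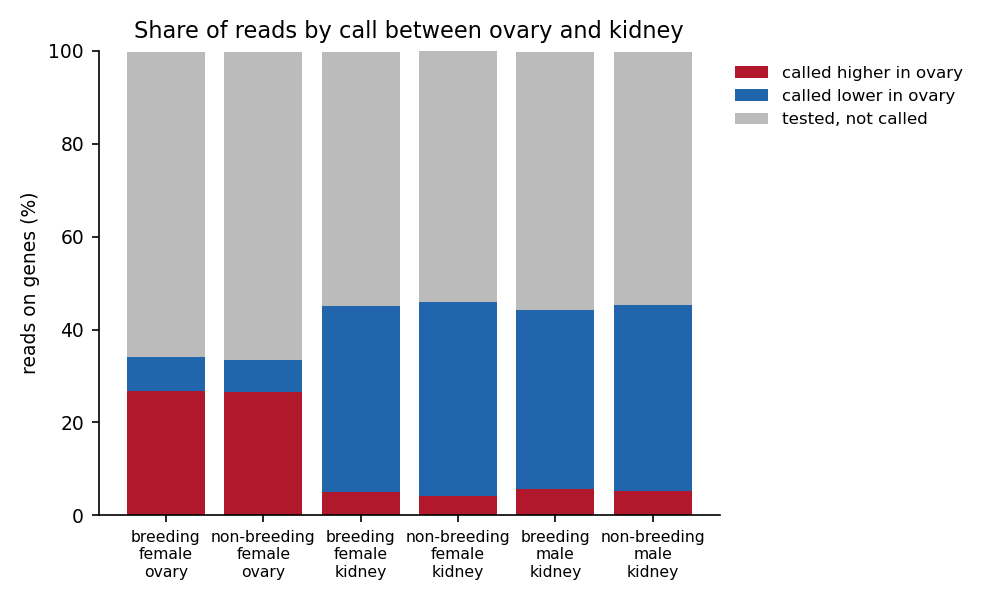
Share of reads on genes (y axis, percent, from 0) taken by genes called higher in ovary, called lower in ovary, or tested and not called, in the 4 libraries compared and the 2 male kidneys (x axis). Genes called lower in ovary take 40.2% and 41.7% of the female kidney reads and 38.4% and 40.1% of the male kidney reads.

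Some genes were read in only 1 of the tissues. At 1 RPKM or more in both ovaries and under 0.1 RPKM in both female kidneys stood 139 of the 21082 genes (0.659%), of which 82 had no read in either kidney. The reverse held for 165 genes (0.783%), of which 79 had no read in either ovary. Their levels differed: the median of the mean RPKM was 2.94 for the ovary genes and 9.85 for the kidney genes, and 14 and 70 of them reached 10 RPKM in both libraries. Together the 139 ovary genes had 54730 and 34425 reads in the ovaries and 110 and 64 in the kidneys. The 165 kidney genes had 369960 and 268477 reads in the kidneys and 208 and 70 in the ovaries. Of the 139, 11 were at least 2-fold above and 8 at least 2-fold below the non-breeding ovary in the breeding ovary, and for the 165 in kidney these counts were 14 and 14.

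DMR_09069 was the most abundant gene read in ovary and not in kidney. It stood at 387 (breeding) and 258 RPKM (non-breeding) in the ovaries, and no read was assigned to it in any of the 4 kidney, 4 liver or 4 brain libraries. Against a floor of 3 reads over both female kidneys, its ovary level was at least 1655-fold higher. The testes had 27.2 and 25.9 RPKM. DMR_02293, the next, had 219 and 197 RPKM in the ovaries and 1 read in each female kidney, a ratio of 2893 with a 95% counting interval of 801 to 23890. It was also read in testis, at 41.5 and 40.4 RPKM, and in liver, at 53.6 to 67.9 RPKM. On the kidney side DMR_19765, described above, led, followed by DMR_03457 at 1358 and 599 RPKM in the female kidneys. DMR_03457 had 0 reads (breeding) and 1 read (non-breeding) in the ovaries, and the kidney level was 46409 times that of the ovary, with a 95% counting interval of 8329 to 1833122. In the male kidneys it stood at 214 (breeding) and 1067 RPKM, and in no library of another tissue above 0.989. The 2 ovary genes had similar levels in both ovaries, while DMR_03457 ranged from 214 to 1358 RPKM among the 4 kidneys.

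The 12 libraries outside the comparison show where else these genes were read. Of the 139 genes read in ovary and not in female kidney, 72 were at 1 RPKM or more in both testes, 36 in all 4 brains and 11 in all 4 livers. In the male kidneys 100 of them were under 0.1 RPKM in both libraries, and 1 was at 1 RPKM or more in both. In every library outside ovary and female kidney, 38 were under 1 RPKM. Of the 165 kidney genes, 150 reached 1 RPKM in both male kidneys, 63 in all 4 livers, 31 in both testes and 20 in all 4 brains. Under 1 RPKM in all ovary, testis, liver and brain libraries stood 51 of them. Of all 14286 genes tested, 90.0% reached 1 RPKM in both male kidneys and 89.3% in both testes. For all 4 livers the share was 80.7% and for all 4 brains 86.2%.

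The called genes as a whole were read in many tissues. Of the 2194 genes called higher in ovary, 88.3% were at 1 RPKM or more in both testes, 77.7% in all brains, 62.5% in all livers and 67.5% in both male kidneys. Of the 2340 called lower, 72.9% were at 1 RPKM or more in both testes, 71.7% in all brains, 72.5% in all livers and 97.6% in both male kidneys. The shares of all 14286 genes tested were 89.3%, 86.2%, 80.7% and 90.0%. Whether these shares differ was not tested. The male and female kidney means of a gene were within 2-fold of each other for 97.5% of the genes called higher, 95.2% of those called lower and 96.8% of all genes tested. The coding length, recovered from the RPKM in steps of 3 bases, had a median of 1218 bases for genes higher in ovary, 1425 for genes lower in ovary and 1320 for all genes tested.

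A list of kidney genes that used none of the 4 libraries gave a further description. It holds 56 genes at 10 RPKM or more in both male kidneys and under 1 RPKM in all liver, brain and testis libraries. In the female kidneys their median level was 39.0 RPKM (breeding, range 1.04 to 1358) and 30.9 (non-breeding, range 0.105 to 599). In the ovaries it was 0.112 (range 0 to 31.5) and 0.0514 (range 0 to 14.7). All 56 genes were lower in both ovaries than in both female kidneys, beside 32.1% of all genes tested. Of the 56, 52 were called lower in ovary, beside 16.4% of all genes tested, 3 were tested and not called, and 1 did not pass the filter of 1 RPKM. The median log2 difference was -5.04 for the breeding pair and -4.85 for the non-breeding pair. With the 25 and 40 genes of 3 reads or fewer in the ovary set to 3 reads, the median kidney level was 189 and 211 times that of the ovary. More of the list was read in the breeding ovary: 10 of the 56 genes reached 1 RPKM there and 4 in the non-breeding ovary. No read was found for 11 and 25 of them, counts that also depend on depth, and the breeding ovary was the deeper library. As a share of all reads on genes, which is scaled for depth, the list took 0.0115% and 0.00541% in the ovaries and 0.858% and 0.726% in the kidneys. The cause of the difference between the ovaries was not tested.

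**Figure D3:**
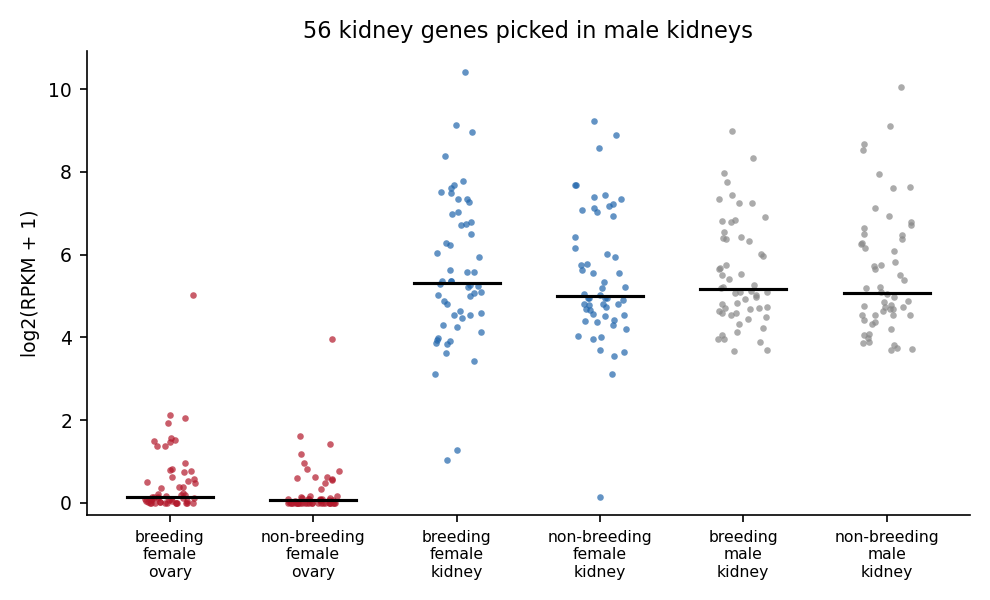
Levels as log2(RPKM + 1) (y axis) of the 56 kidney genes chosen in the male kidneys, in the 4 libraries compared and the 2 male kidneys (x axis); each point is a gene and each line the median of a library. The ovary medians of 0.112 and 0.0514 RPKM lie far below the kidney medians of 39.0 and 30.9 RPKM, and 1 gene reaches 31.5 and 14.7 RPKM in the ovaries.

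The breeding and the non-breeding pair share no library and gave much the same order of genes. In the breeding pair the ovary exceeded the kidney 2-fold or more for 2316 genes (16.2%) and fell short of it for 2364 (16.5%). In the non-breeding pair 2727 (19.1%) were higher and 2791 (19.5%) lower. In both pairs 1696 genes (11.9%) were higher and 1939 (13.6%) lower by 2-fold or more. The shared higher genes are 73.2% of the breeding and 62.2% of the non-breeding list, and the shared lower genes are 82.0% and 69.5%. In opposite directions went 47 genes that were 2-fold or more higher in ovary in the breeding pair and lower in the non-breeding pair (0.329%), and 9 with the reverse (0.063%). Across the 14286 genes the ratios of the pairs had a Pearson correlation of 0.888 and a Spearman correlation of 0.784. Each ratio is 1 library over 1 library and has no replicate check of its own.

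The share of genes seen 2-fold in the other pair too was counted by size of difference. Of genes 2 to 4-fold higher in ovary in the breeding pair, 65.1% (1027 of 1578) were 2-fold or more higher in the non-breeding pair too. For 4 to 16-fold this was 89.6% (575 of 642), and for 16-fold or more 97.9% (94 of 96). For genes lower in ovary the shares were 67.5% (821 of 1216), 96.2% (730 of 759) and 99.7% (388 of 389). Starting from the non-breeding pair, genes 2 to 4-fold higher were repeated in 49.2% (917 of 1863) and lower genes in 49.7% (733 of 1476). At 16-fold or more these were 122 of 122 and 451 of 458. The ratios of the non-breeding pair were also spread more widely, with quartiles of -0.72 and 0.76 on the log2 scale against -0.58 and 0.65 in the breeding pair.

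**Figure D4:**
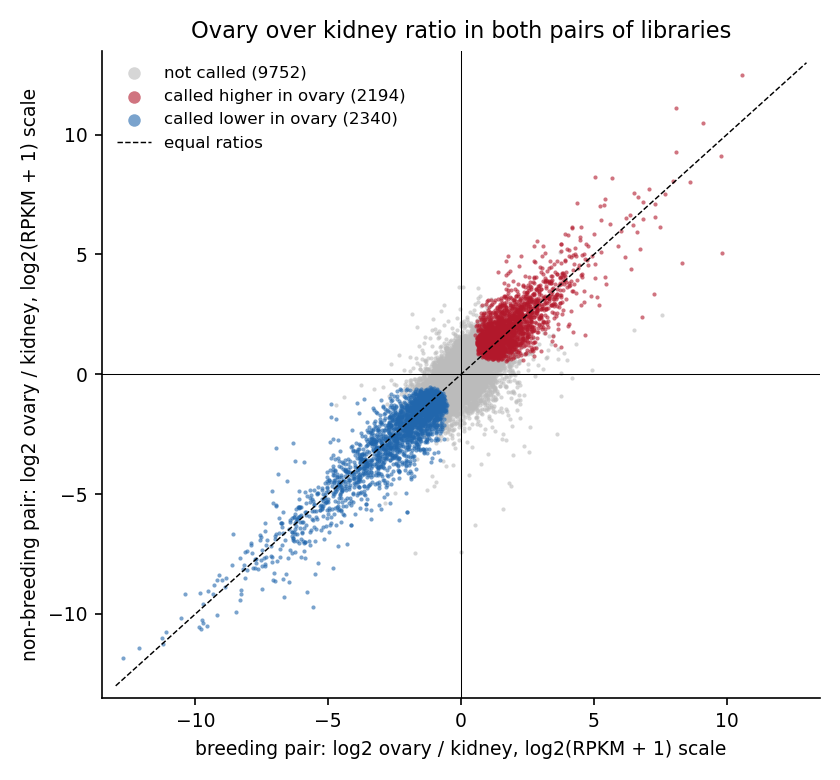
Log2 ratio of ovary over kidney in the breeding pair (x axis) and the non-breeding pair (y axis), both on the log2(RPKM + 1) scale, for the 14286 genes tested; red and blue points are genes called higher and lower in ovary by limma, grey points genes not called, and the dashed line marks equal ratios. The points follow the line, with a Pearson correlation of 0.888 across genes.

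The ratios of the pairs were then set against each other gene by gene. Between the pairs, 1235 genes (8.64%) had a ratio 2-fold or more higher and 975 (6.82%) a ratio 2-fold or more lower in the breeding pair, with 211 and 99 genes at 4-fold or more. Among 9124 genes with 100 or more reads in each of the 4 libraries, the SD of the difference was 0.66 on the log2 scale against a median counting error of 0.109, and 1032 of them (11.3%) differed by 2-fold or more. Separate libraries can differ by more than counting error whatever their breeding status, so these values describe the 4 libraries. Over all genes tested, the breeding minus non-breeding differences had an SD of 0.59 in both tissues. Among the 2210 genes whose ratio differed 2-fold or more, the ovaries differed more than the kidneys in 43.2%. For ratios higher in the breeding pair the ovaries differed more than the kidneys in 50.4% of the genes, and for ratios lower in the breeding pair in 34.1%.

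The largest differences toward the breeding ovary belonged to genes that were also abundant in the liver of a breeding female. Of the 5 genes with the largest difference, 4 had 382 to 904 RPKM in the breeding ovary, 2.94 to 4.46 in that of the non-breeding female, and 104 to 309 in the female kidneys. In the livers the same genes had 2482 to 11480 RPKM in the breeding female and 71.9 to 141 in the other. Their ovary over kidney ratio was 0.51 to 1.88 on the log2 scale in the breeding pair and -6.30 to -4.52 in the non-breeding pair. None of these 4 genes was called in the test below, where their adjusted p was 0.55 to 0.723 (limma), and 1 sample a group carries each ratio. The gene with the largest difference of all had 64.2 and 0.227 RPKM in the ovaries, 64.9 and 209 in the female kidneys, and 3886 and 4290 in the female livers, the breeding library first.

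The difference between the ratios was tested in all 16 libraries, with a mean for each tissue and status. There the spread comes from kidney, liver and brain, each with 1 male and 1 female library per status, the lone ovary libraries are assumed to vary alike, and male kidneys enter the kidney means. Of 17327 genes, limma called 51 with a ratio higher (0.294%) and 19 with a ratio lower (0.11%) in breeding libraries. Without adjustment, 1117 genes were under a p of 0.05. Of the 70 genes, 30 were under 1 RPKM in all 12 kidney, liver and brain libraries, so that hardly any spread was measured for them. With genes at 1 RPKM or more in at least 2 of those libraries and 2 of the 4 compared, 16 (0.114%) were called higher and 4 (0.0285%) lower of 14021, and 18 of these 20 were among the 70. This selection was chosen after seeing the data. Voom on the recovered reads called 9 genes (0.0519%), all of them among the 70 and all with a higher ratio in breeding libraries.

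DMR_11677 had the largest difference among the genes called. It stood at 55.8 RPKM in the breeding ovary, from 1857 reads, and at 0.276 in the non-breeding ovary, from 7 reads. The female kidneys had 3.61 and 6.21 RPKM and the male kidneys 5.40 and 3.75. The gene was therefore higher in ovary than in kidney in the breeding pair (log2 ratio 3.62) and lower in the non-breeding pair (-2.50). The livers held 0 RPKM of it and the brains 0.359 to 0.979, so livers and brains measured little spread for this gene. Its fitted difference of 5.58 is given as a description, without an error or a p. DMR_18299 was read in the ovaries and not in the female kidneys, at 187 (breeding) and 4.57 RPKM (non-breeding) in the ovaries. No kidney, liver or brain library held a read of it, so no spread was measured for it in those tissues. It passed the filter through the ovaries alone, and its fitted difference of 5.07 is given as a description, without an error or a p. Over both ovaries its level was at least 478-fold above a floor of 3 reads over both female kidneys.

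Of the genes with a lower ratio in breeding libraries, DMR_11412 differed between the kidneys. It stood at 921 (breeding) and 77.5 RPKM (non-breeding) in the female kidneys, and at 681 and 105 in the male kidneys. The ovaries were nearly level at 6.44 and 8.36 RPKM, and the livers, brains and testes lay between 6.57 and 9.87. The ratio was -6.95 for the breeding pair and -3.07 for the other, a fitted difference of -3.45 (SE 0.36, limma adjusted p = 0.0081). Voom did not call it (adjusted p = 0.0929, range over the alternatives 0.0017 to 0.0929). DMR_18421 differed between the ovaries. It stood at 31.9 (breeding) and 321 RPKM (non-breeding) in the ovaries, at 119 and 180 in the testes and at 0.241 or less in all kidneys. The livers and brains held 1.19 RPKM or less, so the tissues that supply the spread measured little of it for this gene. Its fitted difference of -3.31 is given as a description, without an error or a p. The gene was not called with a pseudocount of 0.1 or with voom. Both genes kept the order of the tissues in both pairs.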

How the data were processed

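Per the labels' protocols, poly(A)+ RNA was copied from random hexamers and read from both ends; no marking of strand is mentioned. The authors deposited RPKM values of all genes and libraries in 1 table. The submitters' processing notes name TopHat 1.3.1, without its role. Not given in the sources used here are the genome build, the gene annotation and how reads were counted.

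Whole reads were recovered by finding, for each gene, the length in steps of 3 bases and, for each library, the divisor that turn all values into whole reads. All 21082 genes (100%) gave whole reads in every library, where whole means within 1e-06 of a read or 1e-11 of the value. A step of a single base would scale all divisors alike. What the divisor counts is not given. Intervals and floors cover counting error only.

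Tests used limma 3.58.1 under R 4.3.3 on log2(RPKM + 1) (lmFit, eBayes with a mean-variance trend) and Benjamini-Hochberg adjustment over all genes tested, at a threshold of 0.05. Genes at 1 RPKM or more in 2 or more libraries of a fit were tested. Differences on this scale understate the changes of low genes. The tissue fit held 4 libraries and tissue alone, and the fit of the ratio difference held 16. The scripts were tested on simulated data. Simulated unchanged genes that are silent in kidney, liver and brain were called too often in the fit of the ratio difference.

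Named genes have the largest differences among those called, or the highest mean RPKM among those read in 1 tissue, at most 2 a direction. Marker lists could not be used without gene names. The libraries and lists were chosen with earlier results of these data known. Alternatives were the pseudocount, filters, scaling, quantile normalization, voom, a block for the status pair, all 16 libraries, and leaving out libraries.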

Additional observations from a re-analysis of the deposited data

Results flagged for a closer look

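The ovary over kidney ratio differed between breeding and non-breeding libraries for 70 genes by limma, in a test of the difference itself. Of these, 30 were under 1 RPKM in all 12 kidney, liver and brain libraries, which supply the spread, a class of genes that the fit called too often in simulated data. The genes named are DMR_11677, with a difference of 5.58 on the log2 scale, DMR_18299 with 5.07, DMR_11412 with -3.45 and DMR_18421 with -3.31. DMR_18299 rests on the 2 ovaries alone and has no measured spread. DMR_18421 was at 1.19 RPKM or less in all kidney, liver and brain libraries, so little spread was measured for it there. DMR_11677 was at 0.979 RPKM or less in all liver and brain libraries, which measured little spread for it too. For 56 genes the ovary was 2-fold or more higher than the kidney in 1 pair and 2-fold or more lower in the other, and this difference in direction was not tested.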

How the results depend on the processing

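Of 61 alternatives to the counts and the list median, 45 left the value close to the one reported, for counts within 1.5 times. That refers to totals: the split of calls between ovary and kidney ran from 34.7% higher in ovary (without the breeding ovary) to 61.7% (scaled to reads on genes), against 48.4%. The number of genes called between ovary and kidney was 4534, 7231 with all 16 libraries and male kidneys included, and 2044 to 3020 without any 1 of the 4 libraries. With the status pair as a replicate block it was 4707. The number called for the difference between the ratios was 70, and it was 447 without a filter, 34 with a filter of 5 RPKM, 106 after scaling to reads on genes, 9 with voom, 20 among genes read in kidney, liver or brain (a selection made after seeing the data), and 44 to 77 without any 1 of 14 libraries. The lowest count came from leaving out the non-breeding male or the non-breeding female liver. Genes read in 1 tissue only numbered 304, 122 with a limit of 5 RPKM and 161 when listed at 0 in the other. The kidney list's median log2 difference was -4.82, and -4.36 with a limit of 5 RPKM in the male kidneys and -4.69 after scaling to reads on genes. The cause of these shifts was not tested beyond what fewer libraries or genes bring. The genes named for the tissue difference were chosen for their size or level in these libraries, and 5 of the 7 are not tested without a library of the tissue where they are high, so their stability was not assessed. Leaving out an ovary library was not run for the difference between the ratios, since it leaves no value.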

Other observations

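Genes with a strong preference for 1 tissue were read at low levels in the other. The 7 genes called 256-fold or more higher in ovary had 433 (breeding) and 106 reads (non-breeding) in the female kidneys, or 22.2 and 6.78 CPM of the reads on genes, and 5.86 and 3.19 CPM in the male kidneys. For the 98 genes at 16-fold or more the difference was smaller, with 1140 and 870 CPM in the female and 1157 and 1097 CPM in the male kidneys. The 33 genes called 256-fold or more lower in ovary had 62.5 and 44.2 CPM in the ovaries, and 19 of them were higher in the breeding ovary and 13 in the other. The 412 genes at 16-fold or more lower had 2893 and 1838 CPM, and 284 were higher in the breeding ovary and 106 in the other. The calls used these libraries, so the values are a description. The share of all genes tested that were higher in the breeding ovary is not given here. Nothing is therefore read from the counts of genes higher in each ovary. The breeding ovary was also the deeper library, with 23295227 reads on genes against 17641918 in the non-breeding ovary.

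Lists chosen by their level in other tissues were also looked up in the ovaries. A liver list, chosen after seeing the data, holds 172 genes at 100 RPKM or more in all 4 livers, with each brain and testis library at 1% or less of the lowest liver. Its median was 0.565 (breeding) and 0.235 RPKM (non-breeding) in the ovaries, and it was higher in the female kidneys, at 15.2 and 19.5. The most abundant liver gene had 5 reads (breeding) and 0 (non-breeding) in the ovaries, against 653 and 2272 in the female kidneys. Without the 172 genes the number of genes whose ratio differed 2-fold or more between the pairs was 2156, against 2210 with them, and the number called was 68 against 70. Only 140 of the 14286 genes tested were on the list, so these totals could hardly move. Of the 140, 45 had a ratio 2-fold or more higher and 9 a ratio 2-fold or more lower in the breeding pair. For all genes tested the shares were 8.64% and 6.82%. Whether the list differs from all genes was not tested. Of 350 testis genes, at 10 RPKM or more in both testes and under 1 RPKM in male kidney, liver and brain, 55 and 60 were at 1 RPKM or more in the ovaries and 5 and 2 in the female kidneys. The low kidney counts follow in part from the limit set in male kidney. A list of 163 brain genes showed the same order, with 43 and 27 at 1 RPKM or more in the ovaries and 7 and 5 in the female kidneys. The limits that the brain list set in other tissues are not given here, so nothing is read from its counts. The testis list is not limited to testis: its highest ovary levels, 2794 and 2092 RPKM, are those of DMR_17802, named above among the ovary genes.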
